A study of Homo sapiens with 20 samples.

Results

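The response of the splicing factor U2AF2 to hnRNPA1 overexpression was set against the response of hnRNPA1 itself, gene by gene. Both were measured by iCLIP, in which RNA-binding protein is crosslinked to RNA by UV light and immunoprecipitated, and the attached RNA is sequenced. The genes compared were the 4393 with a called peak of at least 6 reads in all 10 libraries of the 2 proteins, out of 17526 genes with such a peak in any of the series' 16 iCLIP libraries. For each gene, reads in peaks were divided by the size factor of their library, and these normalised reads were taken to log2. The response difference is the U2AF2 change (overexpression minus control) minus the hnRNPA1 change (overexpression minus control). A value below 0 means that U2AF2 signal rose less, or fell further, than hnRNPA1 signal on the same gene, or fell where hnRNPA1 rose.

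The U2AF2 libraries were 3 from cells overexpressing T7-tagged hnRNPA1 and 3 from control cells, and the hnRNPA1 libraries were 2 from overexpressing cells and 2 from control cells. All cells were TREX FLP-In 293T cells, a derivative of the human embryonic kidney line HEK293T in which a transgene is switched on by tetracycline. Per the labels, the inducible and the control line were both grown in tetracycline for 24 h after 3 days of drug selection, with blasticidin and zeocin named in general and hygromycin for the inducible line. Line, selection drug and hnRNPA1 level therefore cannot be told apart. The labels do not say whether the inducible line was 1 clone, whether the hnRNPA1 pulled down was the tagged protein, or whether libraries came from separate cultures. The p-values therefore measure only the spread between these libraries, which may be technical. iCLIP started from nuclear extracts, and no RNA level per gene was analysed here, so a change in binding and a change in the amount of nuclear RNA cannot be told apart.

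U2AF2 is the large subunit of the factor that recognises the polypyrimidine tract at 3' splice sites and helps to place the U2 snRNP on the branch point. hnRNPA1 is an abundant nuclear protein that binds UAG-containing RNA, spreads along exons and introns, and often represses nearby splice sites. The pair can meet on the same stretch of intron, since hnRNPA1 is known to affect which pyrimidine tracts U2AF2 accepts.

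Depth differed between conditions, and in opposite directions for the 2 proteins. Reads in peaks of at least 6 reads numbered 2701476, 2317615 and 3291468 in the U2AF2 overexpression libraries, against 702563, 783212 and 1158060 in the U2AF2 controls. The hnRNPA1 overexpression libraries held 549365 and 575471 reads, against 2973275 and 2508821 in the hnRNPA1 controls. The third U2AF2 overexpression library listed peaks from 3 reads up, so its peaks under 6 reads were dropped. Its gene IDs carried version numbers, unlike the others, and whether its annotation or peak calling differed is not known. Of 11 HEK293 cell markers 6 had a peak in some library, and VIM and CDH2 were among the 4393 genes. No hematopoietic, hepatocyte or fibroblast marker was, and 4 of 12, 1 of 7 and 1 of 7 of those had a peak in some library.

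The 2 proteins responded differently on about as many genes as not. The response difference passed the test on 2222 of the 4393 genes, 50.6% (limma, adjusted p under 0.05, Benjamini-Hochberg over all 4393 genes). It was below 0 in 1342 genes, 30.5%, and above 0 in 880 genes, 20%. U2AF2 signal changed on 2522 genes (57.4%), rising on 893 (20.3%) and falling on 1629 (37.1%). hnRNPA1 signal changed on 1044 genes (23.8%), rising on 378 (8.6%) and falling on 666 (15.2%). Leaving out 1 hnRNPA1 control library lowered the hnRNPA1 count to 469 (without the first) or 448 (without the second). The response difference ran from -7.88 to 5.88, with a median of -0.46 and a median SE of 0.52.

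The split between both directions depended on the scale and on the filter. The median response difference over all genes was -0.46 with the size factors used here, -0.18 with size factors over the 4393 genes alone, -0.10 after quantile normalization and 0.49 with total reads in peaks as the scale. With total reads, 729 genes were called below 0 and 1451 above. Size factors over the 4393 genes called 1161 below and 1018 above, and quantile normalization called 1040 below and 969 above. Under all 4 of these scalings, 684 genes remained called below 0 and 806 above, each with its sign. With the number of peaks per gene in place of reads, 748 genes were called, 413 below and 335 above, and 333 and 218 genes were called with the same sign by that count and by all 4 scalings. For U2AF2 itself the direction turned with total reads, to 1767 genes rising and 1025 falling, and was 1350 and 1247 after quantile normalization. With genes that had a peak in fewer libraries let in, most calls of the response difference lay above 0: 3747 above and 1377 below with a peak in 50% of the libraries, and 4691 above and 1385 below with no filter.

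**Figure D1:**
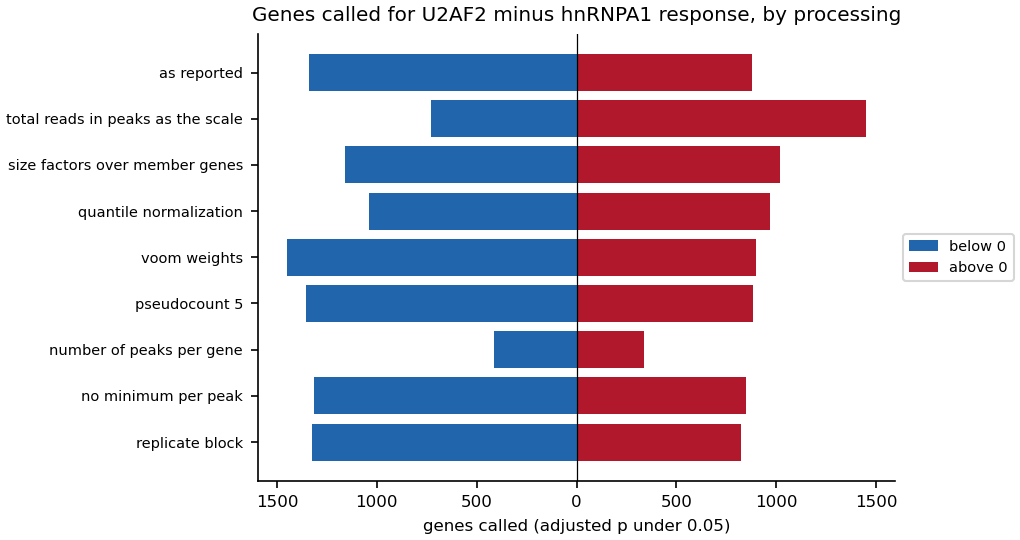
Number of genes called for the response difference (adjusted p under 0.05) under 9 ways of processing the same 10 libraries, with genes below 0 drawn to the left and genes above 0 to the right. Among these 9, genes below 0 outnumbered genes above 0 except with total reads in peaks as the scale, where 729 lay below and 1451 above, and filters that let in further genes are not drawn.

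On most genes where the responses differed, only 1 protein was called. A missed threshold does not show that the other protein was unchanged. U2AF2 made the larger change on 2705 of all members (61.6%). Among the 1342 genes below 0 it did so on 1116 (83.2%), and the most common pattern was U2AF2 lower with no call for hnRNPA1, on 954 genes. Among the 880 genes above 0, U2AF2 made the larger change on 412 (46.8%). There, 312 genes had U2AF2 higher with no call for hnRNPA1, 142 had hnRNPA1 lower with no call for U2AF2, and 331 had both. The 2 proteins changed in opposite directions on 514 genes (11.7%): U2AF2 fell and hnRNPA1 rose on 183 (4.17%), and U2AF2 rose and hnRNPA1 fell on 331 (7.53%). These were 78 and 539 with total reads as the scale, and 41 and 21 by the number of peaks, and the order turned to 919 and 162 with a minimum per peak scaled to library size and every member kept. Without the first or the second hnRNPA1 control library, 260 or 242 genes were left in that class of 514. Both proteins fell on 158 genes and both rose on 52.

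Across the 4393 genes the U2AF2 and hnRNPA1 changes had a Pearson correlation of -0.18 and a Spearman correlation of -0.20. With the genes in 4 groups by mean reads, the Pearson value was 0.02 in the group with the fewest reads and -0.35 in the group with the most. Genes are not independent replicates, and each gene's value shares the depth of its libraries, so these values describe the plot only. Genes with the most reads were called more often, 516 of 1098 below 0 and 273 above, against 298 and 58 of 1100 in the group with the fewest. The groups between had 252 below and 224 above of 1099, and 276 below and 325 above of 1096. Calls above 0 were thus most frequent in the group next to the top.

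**Figure D2:**
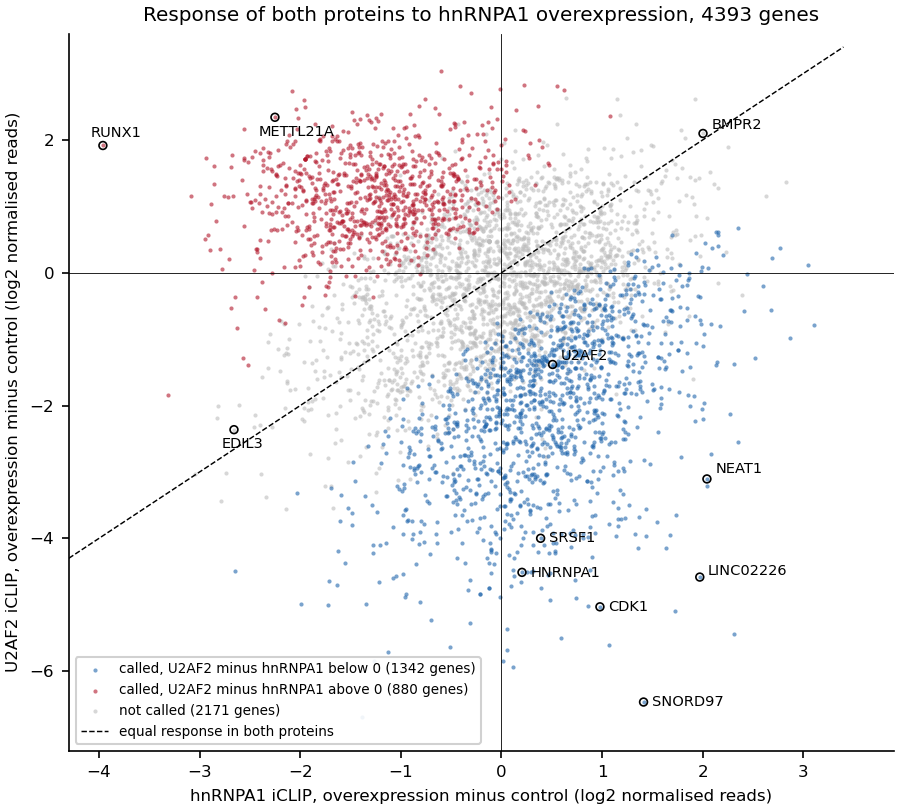
Change in U2AF2 signal against change in hnRNPA1 signal (overexpression minus control, log2 normalised reads) for each of the 4393 genes, coloured by the call of the response difference, with the line of equal response dashed. The 1342 genes called below 0 lie under the line, mostly far below 0 on the U2AF2 axis, and the 880 called above 0 lie over it towards lower hnRNPA1 values, with RUNX1 at the far left and SNORD97 at the bottom.

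Among genes on which U2AF2 fell and hnRNPA1 rose were long non-coding RNAs with high signal. They were not particular to this class: 4 of its 183 genes were annotated as lincRNAs, against 7 of the 331 of the opposite class and 64 of all 4393. NEAT1, the scaffold RNA of paraspeckles (ENSG00000245532; hg19 chromosome 11, peaks from 65190302 to 65212505), held 1356, 1664 and 1470 normalised U2AF2 reads in overexpressing cells, against 13500, 13800 and 11350 in control cells. NEAT1 held 10930 and 11920 normalised hnRNPA1 reads in overexpressing cells, against 2810 and 2730 in control cells. The conditions did not overlap in either protein. Over all members, the U2AF2 overexpression libraries all lay below the controls on 40% of genes and all above on 26.6%, and the hnRNPA1 overexpression libraries all lay above on 30.6% and all below on 36.3%. U2AF2 on NEAT1 fell by 3.10 ± 0.12 (SE) on the log2 scale and hnRNPA1 rose by 2.04 ± 0.14, so that the NEAT1 response difference was -5.15 ± 0.18 (limma adjusted p = 6.39e-08). It was -1.80 after quantile normalization and -2.82 by the number of peaks. Positions given for genes, here and below, span their deposited peaks and not the annotated gene. LINC02226, a long intergenic RNA gene (chromosome 5, 8333603 to 8337295), held 195, 346 and 221 U2AF2 reads in overexpressing cells, against 6674, 5879 and 5304 in control cells. Its hnRNPA1 reads were 2497 and 2955 in overexpressing cells, against 692 and 691 in control cells, and its response difference was -6.56 ± 0.31 (limma adjusted p = 3.21e-07).

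MALAT1, the nuclear speckle long non-coding RNA and neighbour of NEAT1, had the same pattern at a higher level. It held 2324, 3451 and 2140 U2AF2 reads in overexpressing cells, against 39330, 40430 and 30090 in control cells. Its hnRNPA1 reads were 24760 and 22090 in overexpressing cells, against 10080 and 10870 in control cells. The MALAT1 response difference was -4.97 ± 0.27 (limma adjusted p = 3.97e-07), but -0.34 with an adjusted p of 0.21 after quantile normalization, which gives genes of the same rank the same value in every library of a protein. SLIT2 encodes a secreted axon guidance protein, the ligand of ROBO receptors. It held 2667, 3216 and 2682 U2AF2 reads in overexpressing cells, against 13280, 9011 and 13830 in control cells, and 37950 and 39120 hnRNPA1 reads in overexpressing cells, against 9811 and 9551 in control cells. The SLIT2 response difference was -4.05 ± 0.24 (limma adjusted p = 5.08e-07), and -0.02 (adjusted p = 0.96) after quantile normalization.

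The other named genes of this pattern code for proteins and had fewer reads. DEPDC1, which encodes a DEP domain protein, held 9.11, 11.9 and 12.8 U2AF2 reads in overexpressing cells, against 93.4, 181 and 83.1 in control cells, and 113 and 116 hnRNPA1 reads in overexpressing cells, against 19.6 and 37.5 in control cells. INTS14, a subunit of the Integrator complex that processes small nuclear RNA, held 42.6, 49.4 and 38.9 U2AF2 reads in overexpressing cells, against 173, 261 and 384 in control cells, and 49.6 and 89.2 hnRNPA1 reads in overexpressing cells, against 9.38 and 15.8 in control cells. The conditions did not overlap in either protein for DEPDC1 or INTS14, and the response differences were -5.26 ± 0.61 and -4.90 ± 0.59. TRMT11, a tRNA methyltransferase subunit, ACP1, a small tyrosine phosphatase, and RPRD1A, which binds the tail of RNA polymerase II, had response differences of -4.40 ± 0.73, -4.82 ± 0.89 and -3.97 ± 0.56. For ACP1 the hnRNPA1 term was close to the threshold (limma adjusted p = 0.0496). RPRD1A was not called by the number of peaks (-1.04, adjusted p = 0.27).

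The largest response difference above 0 was on RUNX1, which encodes a runt-domain transcription factor of blood development (ENSG00000159216; chromosome 21, peaks from 36160642 to 37354054). It held 573, 498 and 503 U2AF2 reads in overexpressing cells, against 90.5, 176 and 164 in control cells. Its hnRNPA1 reads were 16.5 and 22.3 in overexpressing cells, against 321 and 307 in control cells. U2AF2 rose by 1.92 ± 0.27 on the log2 scale and hnRNPA1 fell by 3.96 ± 0.33, so that most of the RUNX1 difference of 5.88 ± 0.43 (limma adjusted p = 1.61e-06) lay in hnRNPA1. With the number of peaks the RUNX1 difference was 3.98 (adjusted p = 0.00034). The lowest library of RUNX1 was an hnRNPA1 overexpression library with 7 reads, near the minimum of 6 that a member needs. How far the minimum set the hnRNPA1 fall was not tested.

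Among the genes on which U2AF2 rose and hnRNPA1 fell the most were the zinc finger genes ZNF677 and ZNF483. ZNF677, a C2H2 zinc finger gene (chromosome 19, 53739153 to 53745466), held 353, 338 and 343 U2AF2 reads in overexpressing cells, against 99.0, 77.7 and 58.2 in control cells. Its hnRNPA1 reads were 14.2 and 13.4 in overexpressing cells, against 82.5 and 89.9 in control cells, and its response difference was 4.72 ± 0.41 (limma adjusted p = 6.14e-06). METTL21A, a lysine methyltransferase of HSP70 chaperones (chromosome 2, 208463283 to 208487688), held 325, 314 and 347 U2AF2 reads in overexpressing cells, against 99.0, 44.0 and 59.8 in control cells. The METTL21A hnRNPA1 reads were 14.2 and 15.6 in overexpressing cells, against 75.5 and 73.6 in control cells. METTL21A and ZNF677 were chosen among genes whose conditions do not overlap in the protein with the larger change. PPARD, a fatty acid sensing nuclear receptor (chromosome 6, 35315131 to 35393064), held 756, 787 and 666 U2AF2 reads in overexpressing cells, against 153, 137 and 148 in control cells, and 16.5 and 35.7 hnRNPA1 reads in overexpressing cells, against 111 and 93.5 in control cells. The PPARD response difference of 4.35 ± 0.43 was 0.21 (adjusted p = 0.73) with the number of peaks.

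ZNF483, TRAPPC2 (vesicle tethering), RUBCN (a brake on autophagy), MPPE1 (GPI anchor processing) and NLRP12 (an innate immune receptor of the NLR family) had response differences of 4.82 ± 0.78, 4.19 ± 0.54, 4.52 ± 0.60, 4.20 ± 0.35 and 4.11 ± 0.43. The remaining named genes at the top were TOR1AIP1 (inner nuclear membrane), FBXL18 (an F-box protein), RUNDC1, DFFA (the inhibitor of the caspase-activated DNase) and PIGX (GPI anchor synthesis), at 4.57 ± 0.65, 4.46 ± 0.50, 4.45 ± 0.43, 4.45 ± 0.45 and 4.29 ± 0.65. KRBOX1, at 4.67 ± 0.60, shared 99.5% of its reads with peaks also listed under ACKR2, GASK1A and ZNF662, so its value cannot be given to 1 gene. By the number of peaks, RUNDC1, DFFA and PIGX were not called (adjusted p = 0.17, 0.14 and 0.091).

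Genes above 0 more often held, in their lowest library, the smallest number of reads a member could have. A value of 14.2 in the first hnRNPA1 overexpression library, or 13.4 in the second, is a gene with 6 reads there. Of the 880 genes above 0, 252 (28.6%) had 6 reads in their lowest library, against 49 of 1342 (3.65%) below 0 and 690 (15.7%) of all 4393. The lowest library was an hnRNPA1 overexpression library for 763 of the 880 genes. The part of the minimum in these calls was not tested. A further 2013 genes had a peak in 9 of the 10 libraries and missed only 1, most often an hnRNPA1 overexpression library (817 and 423 genes) or a U2AF2 control library (288, 211 and 70 genes). Members with a lowest library of 6 and 7 reads had median response differences of 0.97 and 0.81.

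**Figure D3:**
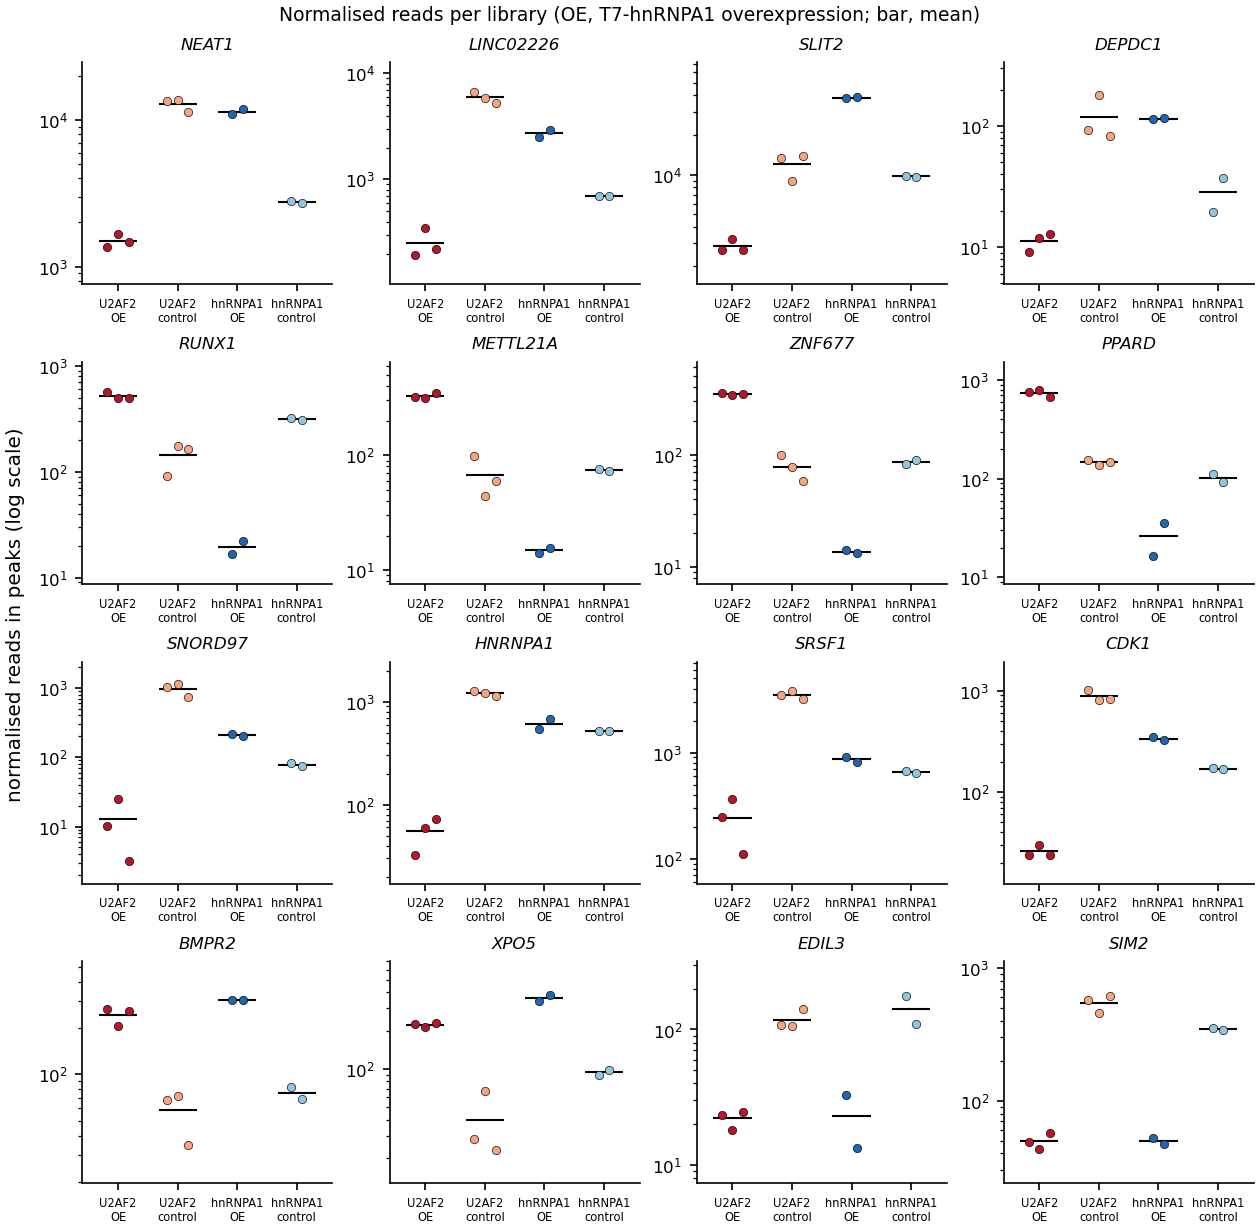
Normalised reads in peaks (log scale) of 16 genes in the U2AF2 overexpression (3), U2AF2 control (3), hnRNPA1 overexpression (2) and hnRNPA1 control (2) libraries, each point a library and each bar a group mean. In the top row U2AF2 is lower and hnRNPA1 higher with overexpression, in the second row the reverse holds, in the third row the change lies mainly in U2AF2, and in the fourth row both proteins move the same way.

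The lowest response difference of all was on SNORD97, a box C/D small nucleolar RNA, a class of short RNA that guides 2'-O-methylation and is processed from introns. Its sequence is shown because it holds a long pyrimidine tract, the kind of sequence that U2AF2 recognises, together with SNORD10 and SNORD19C, which also fell in U2AF2 but hold no such tract. The sequences are the annotated transcripts of GENCODE v29 (GRCh38), 5' to 3', with the longest run of C and T in capitals.
SNORD97: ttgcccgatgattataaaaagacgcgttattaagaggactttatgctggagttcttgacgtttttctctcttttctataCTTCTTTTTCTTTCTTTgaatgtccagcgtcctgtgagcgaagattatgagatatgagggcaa
SNORD10: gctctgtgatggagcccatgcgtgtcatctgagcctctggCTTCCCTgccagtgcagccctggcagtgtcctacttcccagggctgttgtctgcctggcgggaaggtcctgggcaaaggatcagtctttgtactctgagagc
SNORD19C: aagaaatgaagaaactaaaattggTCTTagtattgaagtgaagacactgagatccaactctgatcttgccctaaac
The run in SNORD97 covers 17 bases, from position 80 to 96 of 142. Over 1004 snoRNA and scaRNA transcripts of the annotation the median longest run was 7 bases, and 0.598% had a run of 17 or more. SNORD10 and SNORD19C had runs of 7 and 4 bases. A run is a description of the letters, and no binding site within it was mapped.

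SNORD97 held 10.3, 24.7 and 3.21 U2AF2 reads in overexpressing cells, against 1019, 1121 and 739 in control cells. Its hnRNPA1 reads were 217 and 203 in overexpressing cells, against 82.1 and 74.5 in control cells. Separate U2AF2 conditions were a condition for naming SNORD97. The response difference was -7.88 ± 0.81 (limma adjusted p = 1.78e-05), of which U2AF2 made -6.46 ± 0.51, and the hnRNPA1 change of 1.41 ± 0.63 did not pass (adjusted p = 0.124). All reads of SNORD97 lay in peaks that are listed also under EIF4G2, the translation regulator gene in whose intron it lies. Reads of snoRNA and intron therefore cannot be told apart. The SNORD97 peaks span hg19 chromosome 11, 10823015 to 10823062, minus strand, which is shorter than the 142 bases of the transcript. Whether they reach the run of 17 bases was not checked. EIF4G2 as a whole had a response difference of -3.72 ± 0.28.

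All 8 snoRNA and scaRNA genes among the members were called below 0, against 30.5% of all members. Their median was -4.59, against -0.46 over all members, and 7 of 8 remained called below 0 with total reads as the scale. SNORD10 and SNORD19C had response differences of -3.84 ± 0.63 and -3.99 ± 0.58, with hnRNPA1 changes of -0.18 and -0.01 that did not pass. SCARNA7, a guide RNA of Cajal bodies, held 7.87, 11.4 and 11.8 U2AF2 reads in overexpressing cells, against 70.7, 64.7 and 93.0 in control cells, and 477 and 406 hnRNPA1 reads in overexpressing cells, against 116 and 139 in control cells. Its response difference was -4.55 ± 0.46, with both proteins called. Between 95.8% and 100% of the reads of SNORD10, SNORD19C, SNORD97 and SCARNA7 lay in peaks listed also under a host gene.

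Host genes of snoRNAs were mostly called in the same direction. Of 20 snoRNA host genes, 19 were called below 0 and 0 above, with a median of -3.59 (15 below with total reads, 17 after quantile normalization, 11 by the number of peaks). Among all members 30.5% were below 0, and 47.0% in the group with the most reads. A peak listed under a snoRNA and its host counted for both, so the 2 lists can share reads and are not independent. U2AF2 fell on 18 of the 20 host genes and hnRNPA1 rose on 2. NCL, the nucleolar protein nucleolin, held 63.7, 82.0 and 82.0 U2AF2 reads in overexpressing cells, against 1118, 1100 and 1241 in control cells, and 312 and 390 hnRNPA1 reads in overexpressing cells, against 184 and 180 in control cells. The response differences of NCL, NOP56 (a box C/D core protein), GAS5 and SNHG1 (non-coding host transcripts) were -4.85 ± 0.29, -4.80 ± 0.30, -4.76 ± 0.30 and -4.53 ± 0.32. Reads in peaks shared with another gene made up 30.7% for NCL, 67.2% for NOP56, 61.9% for GAS5 and 69.9% for SNHG1. SRSF1 signal, measured in libraries that the comparison did not use, rose on NCL, NOP56 and GAS5 by 1.33, 1.04 and 1.47 on the log2 scale (limma adjusted p = 0.015, 0.019 and 0.0074). Over the 20 host genes the median SRSF1 change was 0.97, against -0.01 over the 1345 members fitted for SRSF1.

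Most other named genes at the bottom of the order were called for U2AF2 and not for hnRNPA1. HNRNPH1, an hnRNP that binds G-rich RNA (ENSG00000169045; chromosome 5, 179041199 to 179059822), held 432, 763 and 410 U2AF2 reads in overexpressing cells, against 15700, 17190 and 13480 in control cells, and 4129 and 3869 hnRNPA1 reads in overexpressing cells, against 2406 and 2383 in control cells. Its response difference was -5.64 ± 0.33 (limma adjusted p = 4.34e-07), while the hnRNPA1 change of 0.74 ± 0.25 did not pass (adjusted p = 0.0549). EIF4A2, an RNA helicase of translation initiation, held 17.8, 63.7 and 30.7 U2AF2 reads in overexpressing cells, against 1712, 1830 and 1643 in control cells, and 397 and 379 hnRNPA1 reads in overexpressing cells, against 371 and 375 in control cells. The hnRNPA1 change of EIF4A2 was 0.06 ± 0.43 and did not pass. RPL7A, a ribosomal protein gene, had a response difference of -5.86 ± 0.53 and an hnRNPA1 change of 0.01 ± 0.41, with 69.5% of its reads in peaks shared with other genes.

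CDK1, the kinase that drives entry into mitosis (chromosome 10, 62538588 to 62554484), differed through both proteins. It held 24.0, 30.1 and 23.9 U2AF2 reads in overexpressing cells, against 1010, 810 and 824 in control cells, and 350 and 325 hnRNPA1 reads in overexpressing cells, against 171 and 169.9 in control cells. Its response difference was -6.01 ± 0.31 (limma adjusted p = 3.45e-07), and by the number of peaks it was -1.99 and did not pass (adjusted p = 0.15). FOXC1, a forkhead transcription factor, was called for both proteins as well, at -5.78 ± 0.67 with an hnRNPA1 change of 1.64 ± 0.52. BUB3 (spindle checkpoint), TMEM30A (a flippase subunit), RPS13 (ribosomal protein) and PTP4A1 (a phosphatase) were called for U2AF2 and not for hnRNPA1, with response differences of -6.09 ± 0.54, -6.67 ± 0.49, -5.88 ± 0.60 and -5.63 ± 0.67. TMED7, at -6.05 ± 0.52, shared 100% of its reads with peaks listed under another gene.

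The transcripts of the proteins studied were all below 0. HNRNPA1 (ENSG00000135486; chromosome 12, 54674572 to 54680513) held 32.7, 59.3 and 72.4 U2AF2 reads in overexpressing cells, against 1279, 1204 and 1148 in control cells. Its hnRNPA1 reads were 541 and 673 in overexpressing cells, against 522 and 524 in control cells, a change of 0.20 ± 0.31 that did not pass (limma adjusted p = 0.677). Reads from the transgene and from the endogenous HNRNPA1 gene cannot be told apart in these peaks. SRSF1 (chromosome 17, 56078321 to 56083706) held 248, 365 and 111 U2AF2 reads in overexpressing cells, against 3463, 3782 and 3182 in control cells, and 912 and 818 hnRNPA1 reads in overexpressing cells, against 669 and 649 in control cells. The response differences of HNRNPA1, SRSF1 and U2AF2 were -4.72 ± 0.41, -4.39 ± 0.52 and -1.89 ± 0.31. The U2AF2 gene moved with the scale, to -0.94 with total reads, and was not called by the number of peaks (-0.14, adjusted p = 0.87).

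Some genes were called in the same direction in both proteins and not for the response difference. BMPR2, a receptor for bone morphogenetic proteins, held 264, 206 and 259 U2AF2 reads in overexpressing cells, against 67.9, 72.5 and 34.9 in control cells, and 305 and 305 hnRNPA1 reads in overexpressing cells, against 82.5 and 68.7 in control cells. U2AF2 rose by 2.10 ± 0.29 and hnRNPA1 by 2.00 ± 0.36 on BMPR2, and the response difference was 0.09 ± 0.46 (limma adjusted p = 0.879). XPO5 (export of microRNA precursors), CNOT9 (deadenylase complex), TFCP2 (a transcription factor) and RBBP8 (DNA end resection) rose in both proteins, with response differences of 0.69 ± 0.55, -0.36 ± 0.74, 0.21 ± 0.41 and 0.36 ± 0.65.

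SIM2, a bHLH-PAS transcription factor, held 48.4, 43.5 and 57.4 U2AF2 reads in overexpressing cells, against 572, 458 and 616 in control cells, and 52.0 and 46.8 hnRNPA1 reads in overexpressing cells, against 355 and 339 in control cells. Both proteins fell on SIM2, and the response difference was -0.64 ± 0.34 (limma adjusted p = 0.137). FAM120C, SPAG16 (a sperm axoneme protein), WDR41 (a partner of C9orf72) and EDIL3 (a matrix ligand of integrins) fell in both proteins as well. Their response differences were 0.01 ± 0.91, -0.28 ± 0.81, -0.63 ± 0.58 and 0.30 ± 0.59. The SEs of these 10 genes ran from 0.34 to 0.91, so a missed threshold does not show that both responses were equal. XPO5 and TFCP2 were called with total reads as the scale, at 1.63 and 1.15 (adjusted p = 0.025 and 0.041).

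Genes for splicing regulators lay well below the median of all members. In the hnRNP family 20 of 24 members were called below 0 and 0 above, with a median of -2.58, and U2AF2 fell on 21 while hnRNPA1 rose on 2 and fell on 0. In the SR protein family 16 of 19 were below and 1 above, with a median of -3.54. Of 11 genes for 3' splice site and U2 factors 9 were below and 0 above, with a median of -3.11, and of 7 SR protein kinase genes 5 were below and 0 above, with a median of -2.82. These shares compare with 30.5% below and 20% above over all members. In the group of members with the most reads, 47.0% were below and 24.9% above. The hnRNP, SR protein and 3' splice site genes named in the next 2 paragraphs belong to that group. The lists were not set against genes of like read numbers. The number below 0 with total reads as the scale was 18, 14, 8 and 3 in these 4 lists, and by the number of peaks 9, 8, 5 and 3.

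In hnRNPA1, the 4 lists had 8 rises and 4 falls among 61 members, against 23.8% of all members called. HNRNPA2B1, a close relative of hnRNPA1, was one that rose: it held 671, 991 and 656 U2AF2 reads in overexpressing cells, against 9809, 10910 and 8979 in control cells, and 3468 and 3479 hnRNPA1 reads in overexpressing cells, against 1504 and 1465 in control cells. Its response difference was -4.93 ± 0.25 with hnRNPA1 up by 1.23 ± 0.19. HNRNPU, a scaffold attachment protein, and HNRNPH3 were at -4.57 ± 0.22 and -4.06 ± 0.23 with no hnRNPA1 call, and 61.7% of the HNRNPU reads were shared with other genes. SRSF11, SRRM1, LUC7L3 and SREK1, genes of SR and SR-related proteins, were at -4.42 ± 0.31, -3.88 ± 0.22, -3.82 ± 0.24 and -3.67 ± 0.20, again with no hnRNPA1 call.

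CLK1, a kinase that phosphorylates SR proteins, held 29.8, 48.4 and 40.6 U2AF2 reads in overexpressing cells, against 518, 717 and 623 in control cells, and 298 and 196 hnRNPA1 reads in overexpressing cells, against 71.2 and 79.1 in control cells. Both proteins were called on CLK1, and its response difference was -5.62 ± 0.41. The kinase genes PRPF4B, CLK4 and CLK2 were at -4.27 ± 0.29, -2.87 ± 0.60 and -2.81 ± 0.77, without an hnRNPA1 call. CLK2 was not called with total reads (-1.87, adjusted p = 0.062) or by the number of peaks (-1.33, adjusted p = 0.15). SF1, the branch point binding protein that pairs with U2AF2, fell in both proteins: it held 90.2, 114 and 90.2 U2AF2 reads in overexpressing cells, against 2637, 2410 and 2135 in control cells, and 227 and 183 hnRNPA1 reads in overexpressing cells, against 441 and 423 in control cells. U2AF2 fell further on SF1, and the difference was -3.52 ± 0.27. RBM39, U2SURP and DDX46, further factors of 3' splice site recognition, were at -3.29 ± 0.18, -3.42 ± 0.27 and -2.82 ± 0.26.

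Other spliceosome factors had 11 of 24 below 0 and 3 above, against 30.5% and 20% of all members. Their median of -1.25 turned to 0.07 by the number of peaks. DDX17, PRPF38B, SNRPB and DDX39B were at -3.47 ± 0.24, -2.56 ± 0.33, -3.36 ± 0.37 and -2.31 ± 0.22, and all peaks of DDX39B were shared with another gene. DDX39B was not called after quantile normalization (-0.29, adjusted p = 0.30), where DDX17 was at -0.72, and SNRPB was not called by the number of peaks (-0.31, adjusted p = 0.70). Double-stranded RNA binding and editing factors had 12 of 16 below and 1 above, with a median of -1.74. SFPQ, a paraspeckle protein, and DGCR8, the partner of Drosha, were at -3.89 ± 0.25 and -3.04 ± 0.31, while STAU2 was above 0 at 3.61 ± 0.38, with U2AF2 up and hnRNPA1 down. SPEN, a co-repressor with RNA-binding domains, held 2825 and 2777 hnRNPA1 reads in overexpressing cells, against 1026 and 1001 in control cells, and its response difference of -2.37 ± 0.23 lay more in hnRNPA1 (1.47 ± 0.18) than in U2AF2 (-0.90 ± 0.15). Nuclear long non-coding RNAs had 3 of 5 below and 0 above: NEAT1, MALAT1 and TUG1, whose value of -1.95 ± 0.55 did not pass with total reads (adjusted p = 0.15). In this list U2AF2 fell on 4 genes and rose on 1, and 1 gene was called above 0 with total reads, and 1 after quantile normalization.

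**Figure D4:**
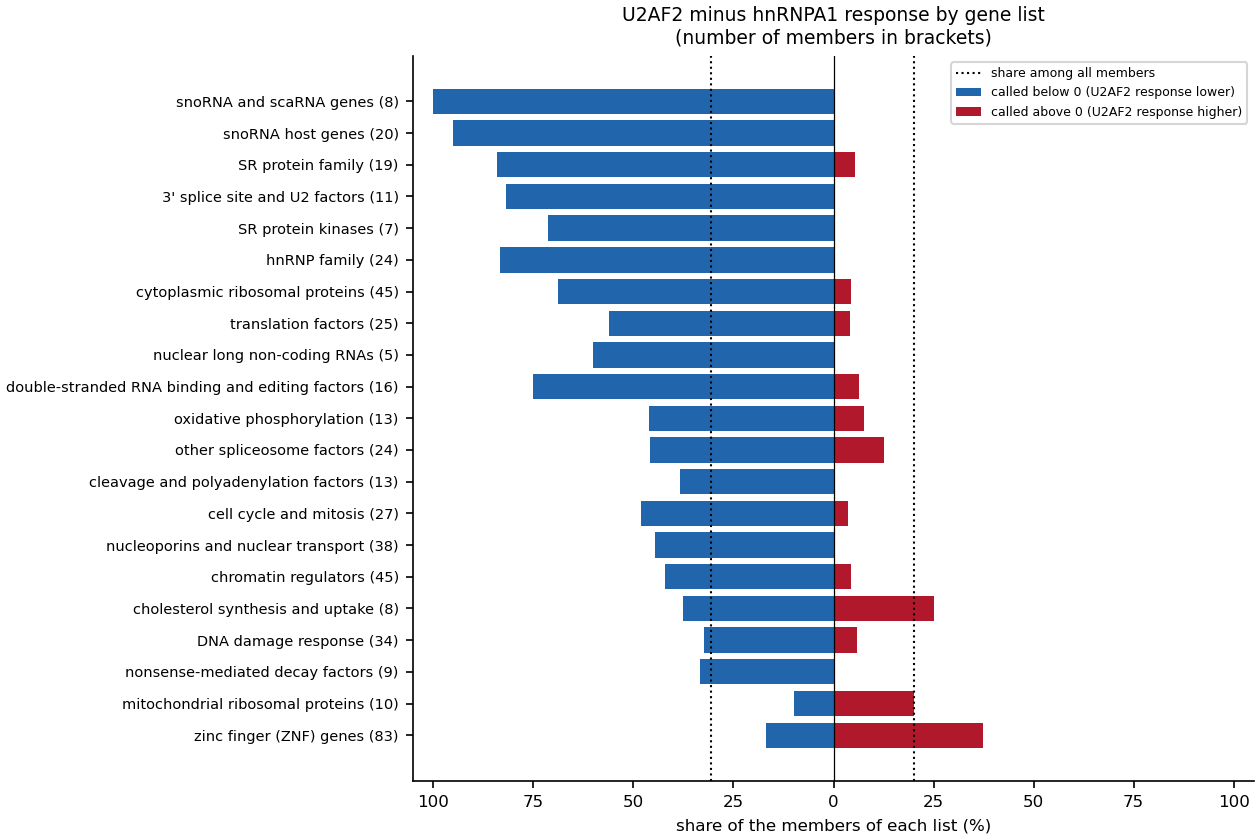
Share of the members of each gene list that were called for the response difference, below 0 to the left and above 0 to the right, for the 21 lists with at least 5 members, ordered by median. Dotted lines mark the shares over all 4393 genes, 30.5% below and 20% above. snoRNA genes, snoRNA hosts and splicing regulators stand at the top, and zinc finger genes at the bottom are the list with most calls above 0.

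Genes of protein synthesis were below 0 in most cases. Of 45 genes for cytoplasmic ribosomal proteins 31 were below and 2 above, against 30.5% and 20% of all members. Their median was -2.48, and with total reads as the scale 24 were below and 7 above. U2AF2 fell on 35 of them, and hnRNPA1 rose on 0 and fell on 3. RPL3, RPL31 and RPL23A were at -4.74 ± 0.40, -4.62 ± 0.41 and -4.29 ± 0.34, with 54% and 59.1% of the RPL3 and RPL23A reads in shared peaks. Of 25 translation factor genes 14 were below and 1 above, with a median of -2.02. EEF1A1, which delivers aminoacyl-tRNA to the ribosome, and PABPC1, the cytoplasmic poly(A) binding protein, were at -3.35 ± 0.32 and -3.22 ± 0.29. Of 10 genes for mitochondrial ribosomal proteins 1 was below and 2 above, with a median of -0.30, which was 0.62 with total reads and 0.09 after quantile normalization. Among them MRPS6 was at -2.24 ± 0.53, with all peaks shared, and MRPL57 at 2.46 ± 0.57.

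Cell cycle genes included several that changed in both proteins. Of 27 members 13 were below 0 and 1 above, against 30.5% and 20% of all members, with a median of -1.07. hnRNPA1 rose on 6 and U2AF2 fell on 13, against 8.6% and 37.1% of all members. U2AF2 fell and hnRNPA1 rose together on 5 of the 27, against 4.17% of all members. NCAPG, a condensin subunit, held 82.8, 84.0 and 93.8 U2AF2 reads in overexpressing cells, against 1347, 1548 and 1150 in control cells, and 404 and 432 hnRNPA1 reads in overexpressing cells, against 165 and 168 in control cells. MKI67, the proliferation marker Ki-67, held 23.2, 36.6 and 27.1 U2AF2 reads in overexpressing cells, against 444, 412 and 527 in control cells, and 203 and 309.8 hnRNPA1 reads in overexpressing cells, against 103 and 81.8 in control cells. The conditions did not overlap in either protein for NCAPG and MKI67, and the differences were -5.26 ± 0.27 and -5.41 ± 0.42. SMC4, another condensin subunit, was at -3.18 ± 0.24 with no hnRNPA1 call.

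Several lists had medians that changed sign with the scale. Chromatin regulators had 19 of 45 below and 2 above with a median of -0.92, which was 0.03 with total reads, where 9 were below and 7 above. Nucleoporins and transport factors had 17 of 38 below and 0 above with a median of -0.94, which was 0.01 with total reads, where 8 were below and 5 above. DNA damage response genes had 11 of 34 below and 2 above with a median of -0.67, which was 0.27 with total reads, where 7 were below and 6 above. Nonsense-mediated decay factors had 3 of 9 below and 0 above with a median of -0.59, which was 0.35 with total reads. Over all members the median was -0.46 and, with total reads, 0.49, and 30.5% were called below 0 and 20% above. The DNA damage and decay lists lay near that share below 0. Named members were EZH2 (-3.97 ± 0.22), ARID1B (-3.15 ± 0.37), CHD2 (-2.66 ± 0.30) and SETD5 (-1.85 ± 0.20) among chromatin regulators, of which CHD2 was not called by the number of peaks and SETD5 neither by that count nor after quantile normalization (-0.17, adjusted p = 0.50), and NUP205 (-3.08 ± 0.30), NUP107 (-2.99 ± 0.31), TPR (-2.81 ± 0.43) and CSE1L (-2.54 ± 0.24) among transport genes. RAD51B, FANCI, PRKDC and FANCA were at -3.26 ± 0.28, -2.26 ± 0.28, -2.14 ± 0.27 and -2.02 ± 0.26. PRKDC and FANCA were not called after quantile normalization (-0.20 and -0.18, adjusted p = 0.60 and 0.64), nor were FANCI, PRKDC and FANCA by the number of peaks (adjusted p = 0.36, 0.36 and 0.19). Among decay factors were CASC3 and SMG9 at -2.59 ± 0.54 and -1.76 ± 0.40.

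Cleavage and polyadenylation factors had 5 of 13 below and 0 above, against 30.5% and 20% of all members, with a median of -1.23. CPSF6, PAPOLA and FIP1L1 were at -3.13 ± 0.20, -2.17 ± 0.30 and -1.48 ± 0.28, and CPSF6 and FIP1L1 fell in both proteins. FIP1L1 was not called with total reads (-0.52, adjusted p = 0.16) or after quantile normalization (-0.53, adjusted p = 0.094), and PAPOLA not by the number of peaks (adjusted p = 0.10). Oxidative phosphorylation genes had 6 of 13 below and 1 above, with ATP5F1B at -3.57 ± 0.37, NDUFV1 at -3.10 ± 0.59 and NDUFA5 above 0 at 1.98 ± 0.52. Among 8 cholesterol genes 3 were below and 2 above, near the 30.5% and 20% of all members, with a median of -0.79 that was 0.15 with total reads: HMGCS1 was at -2.80 ± 0.63, LSS at -2.99 ± 0.63 with 96.9% of its reads shared, and CYP51A1 at 2.09 ± 0.36 with all peaks shared. The HEK293 markers VIM and CDH2 were at -5.31 ± 0.60 and -3.81 ± 0.40.

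Further named genes called below 0 lost the call when peaks were counted in place of reads. These were TMEM30A, DGCR8, HMGCS1, NDUFV1 and NUP205 (adjusted p = 0.057, 0.056, 0.058, 0.064 and 0.077), and SPEN, DDX46, VIM, NUP107, CASC3 and EEF1A1 (adjusted p = 0.13, 0.17, 0.19, 0.20, 0.22 and 0.22). TUG1, EIF4G2, MRPS6 and SMG9 lost it as well (adjusted p = 0.35, 0.63, 0.65 and 0.92), as did NDUFA5 above 0 (adjusted p = 0.44). MRPS6 and SMG9 were not called when scaled by total reads either (adjusted p = 0.066 and 0.11). CLK2 also lost its call without hnRNPA1 control library 2 or hnRNPA1 overexpression library 2 (adjusted p = 0.057 for each), and ZNF483 and RUBCN theirs with a minimum per peak scaled to library size and every member kept (adjusted p = 0.56 and 0.83).

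Zinc finger genes were called above 0 more often than below. Of 83 ZNF genes 31 were called above 0 and 14 below, against 20% and 30.5% of all members, with a median of 0.68. With total reads as the scale, 44 were above and 7 below. By the number of peaks 7 were above and 5 below. With a minimum per peak scaled to library size and every member kept the order turned, to 20 above and 35 below with a median of -1.71. Over all 4393 members that setting gave 499 above and 2741 below, with a median of -5.13. Total reads gave 1451 above and 729 below over all members, and the number of peaks 335 and 413. Among the 83 ZNF genes, U2AF2 rose on 34 and fell on 22, and hnRNPA1 rose on 1 and fell on 24. On 16 genes U2AF2 rose and hnRNPA1 fell. ZNF337 (chromosome 20, 25657789 to 25676499) held 1055, 1082 and 863 U2AF2 reads in overexpressing cells, against 294, 347 and 317 in control cells, and 129.9 and 160.5 hnRNPA1 reads in overexpressing cells, against 417 and 388 in control cells. Its response difference was 3.11 ± 0.26 in reads and -0.78 (adjusted p = 0.28) in the number of peaks. Other ZNF genes were below 0, with ZNF207 and ZNF711 at -3.68 ± 0.20 and -3.85 ± 0.25.

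SRSF1, an SR protein that binds exonic enhancers, gave a readout on libraries that had no part in choosing the genes. Of the 1345 members with a peak in all 6 SRSF1 libraries, 87 changed in SRSF1, 49 higher and 38 lower, and over all 1845 genes fitted for SRSF1 the share was 6.78%. Among members below 0 that could be fitted, SRSF1 rose on 37 and fell on 20 of 539. Among members above 0, it rose on 1 and fell on 3 of 409. Where U2AF2 fell and hnRNPA1 rose, SRSF1 rose on 10 and fell on 1 of 91 genes, MALAT1 and NEAT1 among those that rose (0.73 and 0.87 on the log2 scale, limma adjusted p = 0.0081 and 0.042). PRPF4B had the largest SRSF1 rise of these named genes, at 2.63 (adjusted p = 0.011), and SF1 fell by 2.10 (adjusted p = 0.014). The SRSF1 changes had a correlation of -0.03 with the U2AF2 changes and 0.05 with the hnRNPA1 changes across the 1345 genes. SRSF1 calls rested on single libraries: leaving out 1 of the 6 gave 14, 146 and 49 called members (without control 1, 2 and 3) and 48, 15 and 20 (without overexpression 1, 2 and 3).

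The number of peaks on the members also moved in opposite directions. U2AF2 had 17.1, 15.7 and 20.9 peaks per member gene in overexpressing cells, against 5.93, 6.54 and 8.85 in control cells. hnRNPA1 had 8.50 and 8.58 in overexpressing cells, against 21.8 and 20.4 in control cells. The difference of log2 changes was 2.65. These counts were not scaled for depth, which had the same order and did not overlap between conditions, so no test is given for them. When the minimum per peak was scaled to the size of the library, the difference was -2.70. The members held 62.6%, 62.8% and 59.0% of U2AF2 reads in overexpressing cells, against 71.1%, 71.6% and 74.7% in control cells. They held 82.5% and 81.3% of hnRNPA1 reads in overexpressing cells, against 75.7% and 75.9% in control cells. The difference was -17.1 percentage points. A member needs a peak in every library, so the rule itself favours a larger share in the libraries with fewer reads, and no test is given.

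Positions shared by the 2 proteins were compared within the members. Of U2AF2 reads, 57.4%, 58.1% and 53.7% in overexpressing cells lay in peaks that overlapped a peak of the hnRNPA1 control libraries by at least 1 nt on the same strand, against 58.7%, 55.0% and 54.4% in control cells. The difference of 0.34 percentage points was within the spread between libraries (exact permutation p = 1). Counted by peaks, 25.5%, 27.3% and 26.9% of U2AF2 peaks in overexpressing cells lay on such sites, against 44.2%, 41% and 40.5% in control cells, with no overlap between conditions and more peaks in the overexpression libraries. With the scaled minimum the shares of U2AF2 reads were 90.2%, 89.2% and 88.3% in overexpressing cells, against 58.7%, 56.7% and 58.9% in control cells (p = 0.1, the smallest that 3 against 3 allows in an exact permutation test). That minimum left 7486, 8175 and 6281 U2AF2 peaks in the overexpression libraries, against 25695, 23543 and 22064 in the controls, so unlike sets of peaks are compared. Of hnRNPA1 reads, 26.9% and 28.0% in overexpressing cells lay on peaks of the U2AF2 control libraries, against 37.6% and 37.0% in control cells (exact permutation p = 0.3333, the smallest that 2 against 2 allows).

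**Figure D5:**
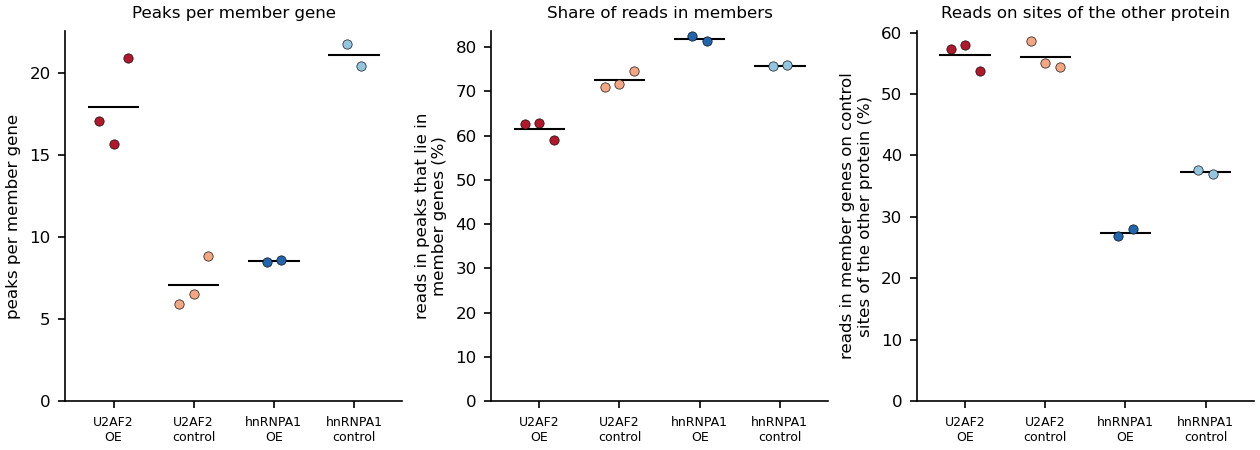
Peaks per member gene, percent of reads in peaks that lie in member genes, and percent of reads in member genes that lie on control peaks of the other protein, with 1 point a library and bars at group means. U2AF2 overexpression libraries had 15.7 to 20.9 peaks per gene against 5.93 to 8.85 in U2AF2 controls, hnRNPA1 libraries had the reverse order, and U2AF2 reads on hnRNPA1 control peaks overlapped between conditions.

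Exon inclusion from the RNA-seq table, 2 libraries per condition, was set beside the iCLIP calls. The authors' deposited table lists 251 skipped exons past a minimum difference in inclusion and a minimum Bayes factor, per its title, of which 50 lay inside the peak span of 1 member gene. Genes below 0 held 23 of these exons, 6 with higher and 17 with lower inclusion in overexpressing cells. Genes above 0 held 6, with 3 higher and 3 lower, and genes not called held 21, with 7 higher and 14 lower. Lower inclusion was thus the more frequent direction in genes not called as well. An exon of the table was present in 48 of all 4393 members. These were 23 genes below 0 (1.71%), 6 above 0 (0.682%) and 19 not called (0.875%). The genes named next were all called below 0. Named splicing genes with such an exon were RBM39, with inclusion of 0.15 and 0.15 in overexpressing cells, against 0.72 and 0.44 in control cells, and SRSF11, with 0.41 and 0.18 in overexpressing cells, against 0.73 and 0.76 in control cells. SRRM1 had 0.09 and 0.03 in overexpressing cells, against 0.15 and 0.38 in control cells, and ZNF711 had 0.20 and 0.24 in overexpressing cells, against 0.58 and 0.59 in control cells. PRPF38B had 0.15 and 0.16 in overexpressing cells, against 0.18 and 0.54 in control cells, and EIF4G2 had 0.87 and 0.95 in overexpressing cells, against 0.52 and 0.93 in control cells. No test was made on these exons, since the table holds only exons already chosen for a difference.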

How the data were processed

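Per the file headers, peaks were called by the authors with CLIPper on hg19 in pre-mRNA mode, separately in each library. The submitters' processing notes name TopHat and Bowtie2, with no version. Each deposited peak name holds a gene ID, a peak number and a read count, and reads were summed per gene over peaks of at least 6 reads, using no other score. A peak listed under several genes counted for each, and 357 members (8.13%) had over 50% of their reads in such peaks. In the authors' deposited exon table, inclusion is a fraction from 0 to 1.

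From these, median-of-ratios size factors were computed within each protein, and log2(normalised reads + 1) was fitted with limma 3.58.1 (R 4.3.3, 4 group means, trended empirical Bayes, 10 libraries). P-values were adjusted by Benjamini-Hochberg over 4393 genes, two-sided, with a threshold of 0.05. The pseudocount shrinks fold changes of low genes. SRSF1 libraries had a fit of their own over 1845 genes. Reads in peaks ran from 549365 to 3291468 per library. The fit was run on simulated data. A pass was required only for simulated reads without the minimum per peak, so that check does not cover the minimum.

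Members and gene lists were chosen with earlier results of these data known. Named genes were the 12 lowest and 12 highest response differences whose conditions do not overlap in the protein with the larger change, the 8 largest opposite changes of each direction, the 5 largest parallel changes of each direction, the genes of the proteins studied, and list members with the smallest adjusted p. MALAT1, TUG1, EIF4G2 and the snoRNAs came from the lists. Replicate numbers did not pair the libraries: deviations of same-numbered libraries had correlations from -0.007 to 0.010. Alternatives in scaling, weights, pseudocount, filters, minimum per peak, replicate block and libraries left out are given at the end. One named gene is not reported here. Sequences came from GENCODE v29 transcripts.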

Additional observations from a re-analysis of the deposited data

Results flagged for a closer look

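The following genes had responses in opposite directions in U2AF2 and hnRNPA1, with a tested difference between the responses (limma, adjusted p under 0.05 over 4393 genes). U2AF2 fell and hnRNPA1 rose on INTS14 (response difference -4.90), TRMT11 (-4.40), ACP1 (-4.82), NEAT1 (-5.15), DEPDC1 (-5.26), SLIT2 (-4.05), LINC02226 (-6.56) and RPRD1A (-3.97). U2AF2 rose and hnRNPA1 fell on METTL21A (4.59), ZNF677 (4.72), ZNF483 (4.82), TRAPPC2 (4.19), RUBCN (4.52), MPPE1 (4.20), PPARD (4.35) and NLRP12 (4.11). Depth differed in opposite directions between the conditions of both proteins, and its part in these values was not tested. No group held enough libraries to look for a single library far from the others.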

How the results depend on the processing

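The count of genes whose responses differ stayed within 1.5 times of 2222 under the other scalings, weights and pseudocount tried (2009 to 2351), and ran from 1840 to 2359 when 1 library was left out. It came to 748 when peaks were counted in place of reads, 1148 with a minimum per peak scaled to library size (1630 genes tested), 5124 with genes present in 50% or more of the libraries (11902 tested) and 6076 with no filter on genes (17430 tested). In that order the U2AF2 counts were 1264, 986, 4467 and 4957, the hnRNPA1 counts with peaks, the 50% filter and no filter were 637, 3226 and 3261, and the opposite changes 62, 1570 and 1491. The cause was not tested beyond the number of genes. The setting with the scaled minimum and every member kept was chosen after seeing the data. There the order of rising and falling turned for hnRNPA1, and so did that of the opposite changes. The hnRNPA1 count was 1666 (1163 rising, 503 falling), and the opposite changes 1081 (919 with U2AF2 lower, 162 with U2AF2 higher). The response difference kept its order, with 2741 genes below 0 and 499 above, against 1342 and 880 with the settings used here. Leaving out 1 library gave 2105 to 2637 genes for U2AF2, 448 to 1273 for hnRNPA1, 242 to 594 for opposite changes and 14 to 146 for SRSF1. SRSF1 called 14 members by the number of peaks and 176 with the 50% filter. With the replicate block the count was 2146, with U2AF2 at 2469, hnRNPA1 at 893 and opposite changes at 416. The replicate numbers did not pair the libraries.

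The log2 difference in peaks per member gene turned to -2.70 with the scaled minimum. The share of U2AF2 reads on hnRNPA1 control peaks moved by -1.13 points with every deposited peak kept, by 31.1 with the scaled minimum, and by -0.50 to 1.70 with 1 library left out. The share of hnRNPA1 reads on U2AF2 control peaks differed by -28 points with the scaled minimum. Of 2667 values of named genes under alternatives, 2577 kept direction and side of the threshold, 47 lost the call, 9 gained one and 34 changed sign. With total reads CNOT9 was at 0.58, SIM2 at 0.30, SPAG16 at 0.67 and WDR41 at 0.31. Quantile normalization put SPAG16 at 0.24, and voom weights put FAM120C at -0.09403. By the number of peaks CNOT9, SIM2, WDR41, CYP51A1, ZNF337 and MRPL57 were at 0.44, 0.32, 0.57, -0.80, -0.78 and -0.52. TFCP2 was at -3.76 with the scaled minimum, and with every member kept BMPR2, XPO5, TFCP2, RBBP8, FAM120C and EDIL3 were at -6.09, -8.09, -3.76, -6.84, -1.499 and -8.28. Leaving out 1 library gave -0.24 to 0.28 for BMPR2, -0.44 to 0.57 for FAM120C, -0.33 to 0.92 for EDIL3, -0.19 to 0.61 for TFCP2, -1.65 to 1.09 for SPAG16, -0.17 to 0.73 for RBBP8 and -0.80 to 0.21 for CNOT9.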
